A study of Mus musculus with 8 samples.

Results

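The genes described here are the matrix metalloproteinases (MMPs), the ADAM, ADAMTS and ADAMTS-like proteins, the tissue inhibitors of metalloproteinases (TIMPs) and the lysyl oxidases of the mouse, measured in brown adipose tissue (BAT). They were taken as every protein-coding gene whose symbol is Mmp, Adam, Adamts, Adamtsl, Timp, Lox or Loxl followed by its number, except Mmp12, and 87 of the 44674 genes in the tables met this. Of these 87 genes, 21 encode MMPs, 33 ADAMs, 19 ADAMTS proteases, 5 ADAMTS-like proteins, 4 TIMPs and 5 lysyl oxidases. BAT came from 4 control mice (genotype Ox1R fl/fl, Sert-Cre wt/wt) and 4 Ox1RΔSERT mice (Ox1R fl/fl, Sert-Cre tg/wt), all male, on a C57BL/6N background and on a high-fat diet (HFD) from week 4 to week 18, and it was taken at the end of a hyperinsulinemic-euglycemic clamp, in which insulin is infused and glucose is given to hold blood glucose steady. All 8 mice thus carried the floxed alleles and received diet, fast and insulin alike. Cre is driven by the serotonin transporter gene Slc6a4, so that orexin receptor 1 (Ox1R, gene Hcrtr1) is deleted in serotonergic neurons. Deletion in adipocytes is not intended, and the study reports no check of it. No group carried Cre without the floxed alleles. The study also found Cre activity of this line in parts of the cingulate cortex and thalamus. The comparison asks how BAT transcripts differ when serotonergic neurons lack Ox1R in diet-induced obesity.

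Total counts were 35852708 to 50063339 per mouse. Hcrtr1 had 0 to 5 counts and Slc6a4 6 to 21 counts in each of the 8 mice, so the deletion could not be checked in this tissue. Among the brown adipocyte markers, Ucp1 was at 1863 to 2638 TPM (transcript abundance scaled for length and library). Cidea, Adipoq, Plin1 and Fabp4 were each at 172 TPM or more in every mouse. Prdm16 and Ppargc1a were far lower, at 0.973 to 2.70 TPM and 4.97 to 19.4 TPM. The share of counts from the mitochondrial genome was 40.0% to 46.8% in control mice and 33.6% to 44.6% in Ox1RΔSERT mice. Ox1RΔSERT mice 11601 and 11708 stood apart from the other 6 on the first principal component of all genes, which took 52.2% of the variance, so counts and the main fold changes are given with and without these mice. Skeletal muscle markers summed to 501 TPM in control mouse 11253 and 999 TPM in Ox1RΔSERT mouse 11708, against 1.21 to 101 TPM in the others.

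Fibrous and basement membrane proteins around adipocytes are cut and rebuilt by these enzymes. MMPs are secreted or membrane-bound zinc proteases that cleave collagens, gelatin, proteoglycans and growth factor carriers. ADAMs are mostly membrane proteases that shed the outer parts of other membrane proteins, and ADAMTS proteases are secreted enzymes that cut the proteoglycans aggrecan and versican or trim procollagens. TIMPs bind and block these proteases, and lysyl oxidases oxidize lysines of collagen and elastin, the step that starts covalent cross-linking. In adipose tissue these genes are known from the remodelling that goes with fat expansion, and many are known from stromal cells and macrophages.

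The sequences upstream of 5 members are shown because Timp1, Mmp14, Adamts1, Mmp3 and Mmp13 had higher means in the Ox1RΔSERT group while their promoters hold different motifs. Promoter entries of RefSeq (GRCm38.p6) were found for 52 of the 87 members, with 56 entries of 300 bases each, from 250 bases before to 50 bases after the start that RefSeq gives. The motifs searched on both strands were the GC box GGGCGG, the TATA box TATAAA and the AP-1 motif TGANTCA, and no motif holds the letters of another. Each line gives the 150 bases before the start, 5′ to 3′ on the gene's strand, with motif matches in capitals. Timp1 lies at chrX:20870016-20870165 (plus strand), Mmp14 at chr14:54431448-54431597 (plus strand), Adamts1 at chr16:85803114-85803263 (minus strand), Mmp3 at chr9:7445672-7445821 (plus strand) and Mmp13 at chr9:7272364-7272513 (plus strand).
Timp1: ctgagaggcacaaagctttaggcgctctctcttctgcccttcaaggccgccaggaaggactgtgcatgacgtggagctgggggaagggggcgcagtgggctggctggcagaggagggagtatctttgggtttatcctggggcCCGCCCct
Mmp14: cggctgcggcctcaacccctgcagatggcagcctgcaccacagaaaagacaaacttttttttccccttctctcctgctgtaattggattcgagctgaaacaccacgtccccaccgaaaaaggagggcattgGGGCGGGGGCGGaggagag
Adamts1: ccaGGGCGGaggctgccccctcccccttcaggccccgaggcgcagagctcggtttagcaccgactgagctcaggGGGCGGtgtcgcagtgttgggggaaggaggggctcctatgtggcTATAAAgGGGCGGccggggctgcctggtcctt
Mmp3: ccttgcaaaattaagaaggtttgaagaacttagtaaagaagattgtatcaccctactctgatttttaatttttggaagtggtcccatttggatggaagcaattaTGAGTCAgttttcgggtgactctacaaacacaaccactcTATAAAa
Mmp13: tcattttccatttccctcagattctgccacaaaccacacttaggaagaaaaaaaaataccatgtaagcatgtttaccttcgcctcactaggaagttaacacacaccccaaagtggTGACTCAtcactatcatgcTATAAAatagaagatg

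Timp1 and Mmp14 hold GC boxes and neither of the other motifs in this stretch, and Adamts1 holds 3 GC boxes and a TATA box. Mmp3 and Mmp13 hold an AP-1 motif beginning 46 and 35 bases before the start, each with a TATA box between it and the start. Both belong to a cluster of 8 members on chromosome 9 (chr9:7272514-7699585), of which only Mmp3, Mmp8 and Mmp13 had enough counts to be tested. Over the member promoters, 50% held a GC box, against 35.7% of all 32851 promoters of the same length. An AP-1 motif was held by 19.6% of member promoters against 7.81% of all, and a TATA box by 23.2% against 13.6%. Mmp1b, Mmp3, Mmp7, Mmp10, Mmp13 and Mmp20 of the chromosome 9 cluster held both of these motifs, so this cluster supplies part of both shares. Of the 11 members with an AP-1 motif only Adam19, Mmp3 and Mmp13 could be tested, and all 3 were higher in the Ox1RΔSERT group at an unadjusted p under 0.05, as were 10.2% of all tested genes and 44.4% of the tested members. Without Ox1RΔSERT mice 11601 and 11708, which stood apart, their unadjusted p values were 0.79, 0.40 and 0.81 by edgeR. A match of letters is not a binding site.

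In the BAT of control mice, 27 of the 87 members had a mean of at least 1 TPM, a level that is scaled for transcript length. Timp3 was the most abundant at a mean of 38.9 TPM, followed by Timp4 at 20.4 TPM, Adam9 at 20.1 TPM, Adam15 at 19.1 TPM and Mmp19 at 18.9 TPM. Lox and Loxl1 were at 10.5 TPM and 10.2 TPM, while Timp1, Timp2, Mmp2 and Mmp14 were at 2.99, 6.99, 3.02 and 1.99 TPM. Counts were found for 72 members, and 54 had enough to be tested. Another 15 members had 0 counts in all 8 mice, which allows up to 3 counts in a mouse or a normalized value of 0.0592 to 0.0951. These 15 were 12 ADAMs, Mmp1b, Mmp7 and Mmp20.

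Of the 54 tested members, 24 were higher in Ox1RΔSERT mice at an unadjusted p under 0.05 by edgeR's quasi-likelihood test and 0 were lower. That is 44.4% of the tested members, while 10.2% of all 14489 tested genes were higher and 4.96% lower by the same rule. The log2 fold change (Ox1RΔSERT against control) was positive for 43 members and negative for 11, with a median of 0.75 over members and 0.0021 over all tested genes. None of the 14489 genes had an edgeR adjusted p under 0.05, members included, and the lowest adjusted p was 0.316. DESeq2 called 7 members at an adjusted p under 0.05, all higher, where it called 1.54% of all genes higher and 0.212% lower. These were Timp1, Mmp14, Loxl3, Loxl4, Adamts1, Adamts4 and Adamts19, with adjusted p from 0.0117 to 0.0409 by DESeq2. For all of them but Adamts19, which edgeR did not test, adjusted p values over all alternatives ran from 2.97e-06 to 1. The low end came from DESeq2 with 1 mouse left out, an alternative added after the data had been seen. No edgeR or limma setting gave any member an adjusted p under 0.05.

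The differences were uneven among the 4 Ox1RΔSERT mice. Mice 11601 and 11708 held the 2 highest values of all 8 mice in 32 of the 54 members (59.3%), as they did in 20.1% of all tested genes. They also did so in 23 of the 24 members with an unadjusted p under 0.05, a count that the selection by p partly sets. Of the 54 members, 38 in mouse 11601 and 39 in mouse 11708 lay above all 4 controls, and in mice 11243 and 11613 these were 10 and 19. These are 70.37% and 72.22% of the members in mice 11601 and 11708, against 31.88% and 31.96% of all tested genes. For mice 11243 and 11613 they are 18.52% and 35.19%, against 11.99% and 20.84% of all tested genes. Below all 4 controls lay 4 and 6 members in mice 11601 and 11708, and 5 and 9 in mice 11243 and 11613. Without mice 11601 and 11708, 2 members (Loxl3 and Adamts1) had an unadjusted p under 0.05, where 1.66% of all genes were higher by that rule, and the median log2 fold change of the members was 0.18. The 4 values of each group did not overlap for 4 members, Loxl3, Adamts1, Adamts4 and Adamts10, all higher in Ox1RΔSERT mice, where 2.69% of all tested genes were higher and 2.81% lower with no overlap. For these 4 the exact two-sided permutation test over the 70 assignments of mice gave p = 0.0286, the smallest that 4 against 4 can give, and the other 50 tested members had an exact permutation p of 0.0571 or more.

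**Figure D1:**
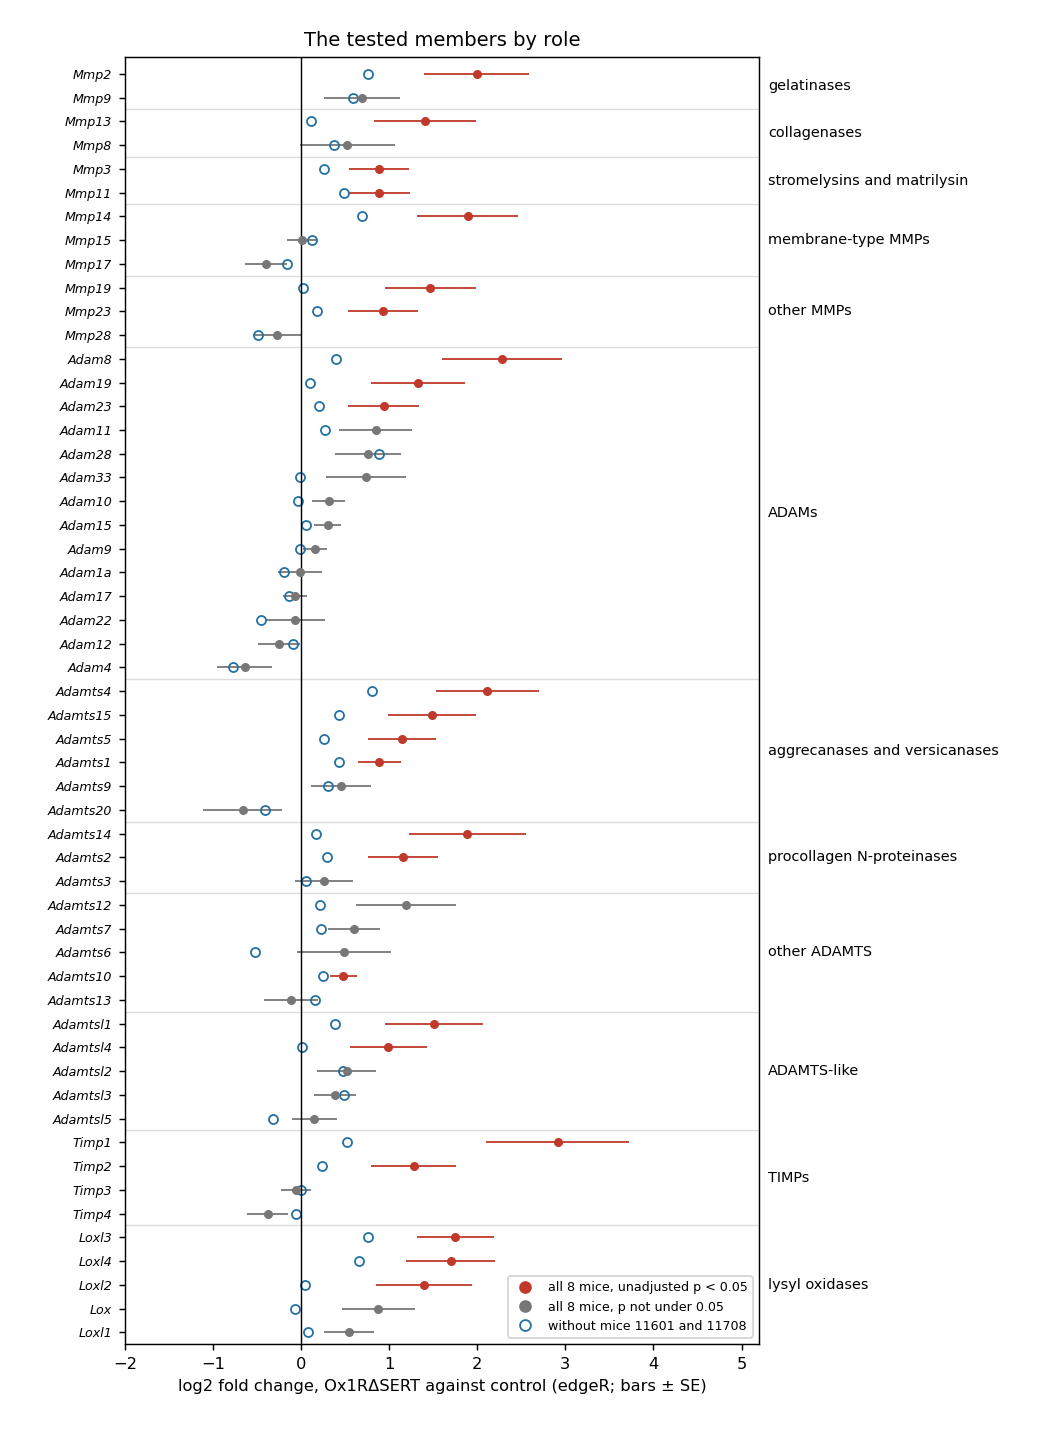
Log2 fold changes of the 54 tested members in BAT of 4 Ox1RΔSERT against 4 control mice, grouped by role on the vertical axis. Filled points are edgeR estimates with all 8 mice and bars are ± 1 SE (red where the unadjusted p is under 0.05, all 24 to the right of 0), and open points are estimates without mice 11601 and 11708, whose median is 0.18.

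The TIMPs differed among themselves. Normalized values, which are CPM values (counts scaled to library size) after TMM scaling, are given for control mice 10684, 11253, 11560 and 11563 and then for Ox1RΔSERT mice 11243, 11601, 11613 and 11708, always in this order. Timp1 (chrX:20870166-20874735), a soluble inhibitor of most secreted MMPs, was at 3.40, 1.71, 2.51 and 3.09 in the controls and at 2.86, 40.5, 4.80 and 32.8 in Ox1RΔSERT mice. Mouse 11243 thus lay within the control range, mouse 11613 just above it, and mice 11601 and 11708 far above it. The group means were 2.68 ± 0.74 and 20.2 ± 19.2 (SD, n = 4 each), and the log2 fold change of 2.91 ± 0.81 (SE) was the largest of the 54 tested members. Its unadjusted p was 0.0060 and its adjusted p 0.316 by edgeR. Without mice 11601 and 11708 the log2 fold change was 0.52 (unadjusted p = 0.15 by edgeR).

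Timp2 (chr11:118301069-118355740), which blocks MMPs and also takes part in the activation of pro-MMP2 by MMP14, was at 23.5, 42.2, 24.6 and 28.4 in controls. In Ox1RΔSERT mice it was at 31.5, 156, 38.4 and 61.5, so that only mice 11601 and 11708 exceeded the controls. By edgeR the log2 fold change was 1.28 ± 0.49 (SE), with an unadjusted p of 0.028 and an adjusted p of 0.317, and it was 0.24 without these mice. Timp3 (chr10:86300372-86349506), which is bound to the matrix and also blocks ADAM17 and aggrecanases, ran from 187 to 268 in controls and from 161 to 253 in Ox1RΔSERT mice, with overlap and a log2 fold change of -0.06 ± 0.17 (SE). Its sign changed with the scaling, to 0.16 with library size alone and to 0.27 on the log2(TPM + 1) scale. Timp4 (chr6:115241892-115252205), an inhibitor known from heart and adipose tissue, was at 31.8 to 38.7 in controls and at 38.0, 15.7, 26.3 and 23.3 in Ox1RΔSERT mice. Here 3 of the 4 Ox1RΔSERT mice lay below all controls and mouse 11243 lay among them, and the log2 fold change was -0.38 ± 0.23 (SE) with an unadjusted p of 0.14 by edgeR. Timp3 shares 1733 of its 8144 exon bases with Syn3 and Timp4 90 of its 5894 with Syn2, both on the opposite strand, and whether the quantification used strand is not given in the sources used here.

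On the TPM scale the make-up of the TIMP mRNA therefore differed by mouse. Timp1 and Timp2 together took 12.3% to 15.8% of TIMP TPM in the controls, 14.9% in mouse 11243 and 20.2% in mouse 11613. They took 68.9% in mouse 11601 and 47.5% in mouse 11708. Timp3 alone took 53.4% to 59.9% in controls and 23.2% and 39.7% in these mice. The sum over the 4 TIMPs was 64.6 to 75.2 TPM in controls and 70.4, 173, 91.3 and 155 TPM in Ox1RΔSERT mice. TPM values of nuclear genes are higher where mitochondrial genes take less of the library, and over all tested genes the median log2 difference between the groups was 0.23 on the log2(TPM + 1) scale. Shares within a family are free of this shift.

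**Figure D2:**
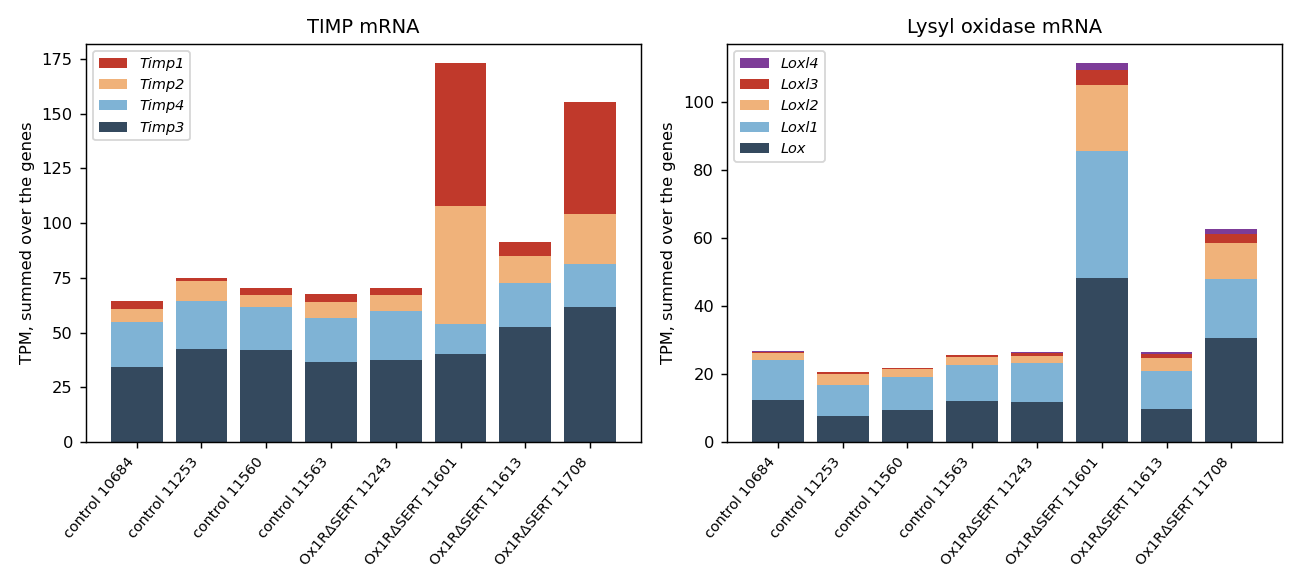
TPM of the TIMP genes (left) and the lysyl oxidase genes (right), stacked for each of the 4 control and 4 Ox1RΔSERT mice. Bars start at 0, and the sections of Timp1 and Timp2 make up 68.9% of the TIMP bar in mouse 11601 and 12.3% to 15.8% in controls.

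All 5 lysyl oxidases had a positive log2 fold change, with a median of 1.4. An unadjusted p under 0.05 was found for 3 of them (Loxl2, Loxl3 and Loxl4), where 10.2% of all tested genes were higher by that rule. Leaving out both mice gave a median of 0.07, and Loxl3 alone had an unadjusted p under 0.05. In all 5 the 2 highest values were those of mice 11601 and 11708. Loxl3 (chr6:83034173-83052562), an enzyme that acts on collagen and fibronectin matrix, was at 1.99, 3.01, 1.92 and 2.35 in controls and at 3.01, 13.2, 4.78 and 10.2 in Ox1RΔSERT mice. The 2 groups nearly touched, since the lowest Ox1RΔSERT mouse and the highest control both round to 3.01. Its log2 fold change was 1.75 ± 0.44 (SE), with an unadjusted p of 0.0033 and an adjusted p of 0.316 by edgeR. Without mice 11601 and 11708 it was 0.76 with an unadjusted p of 0.024 by edgeR. Loxl3 shares 535 of its 4603 exon bases with Htra2 on the opposite strand.

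Loxl4 (chr19:42593982-42612813) was at 2.12, 0.951, 0.903 and 0.904 in controls and at 1.68, 6.94, 2.16 and 5.04 in Ox1RΔSERT mice. Control mouse 10684 lay above Ox1RΔSERT mouse 11243 and just under mouse 11613. A log2 fold change of 1.70 ± 0.51 (SE) had an unadjusted p of 0.0089 by edgeR, and without mice 11601 and 11708 it was 0.66 (unadjusted p = 0.15). Loxl2 (chr14:69609068-69695834), a cross-linking enzyme of collagen IV, was at 13.4, 25.8, 14.8 and 16.4 in controls and at 14.5, 95.3, 21.6 and 53.7 in Ox1RΔSERT mice, with a log2 fold change of 1.4 ± 0.55 (SE) and an unadjusted p of 0.031 by edgeR. Mice 11243 and 11613 lay within the control range, and without the other mice the log2 fold change was 0.04.

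Lox, the founding enzyme of the family, was at 47.2, 34.6, 38.7 and 47.4 in controls and at 49.8, 139, 29.8 and 90.3 in Ox1RΔSERT mice. Its log2 fold change was 0.88 ± 0.41 (SE, unadjusted p = 0.061 by edgeR) and it was -0.07 without mice 11601 and 11708. Loxl1 (chr9:58287738-58313186), which is needed for elastic fibres, was at 34.6 to 41.2 in controls and at 42.1, 94.1, 35.0 and 43.4 in Ox1RΔSERT mice, so that mouse 11601 alone was far from the rest. For Loxl1 the log2 fold change was 0.55 ± 0.29 (SE, unadjusted p = 0.091 by edgeR), or 0.07 without mice 11601 and 11708. In TPM, Lox and Loxl1 made up most of the lysyl oxidase mRNA of every mouse, and Loxl3 took 1.35% to 2.33% in controls and 3.08% to 4.45% in Ox1RΔSERT mice, with no overlap. The family summed to 20.7 to 26.9 TPM in controls and to 26.5, 112, 26.6 and 62.9 TPM in Ox1RΔSERT mice.

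**Figure D3:**
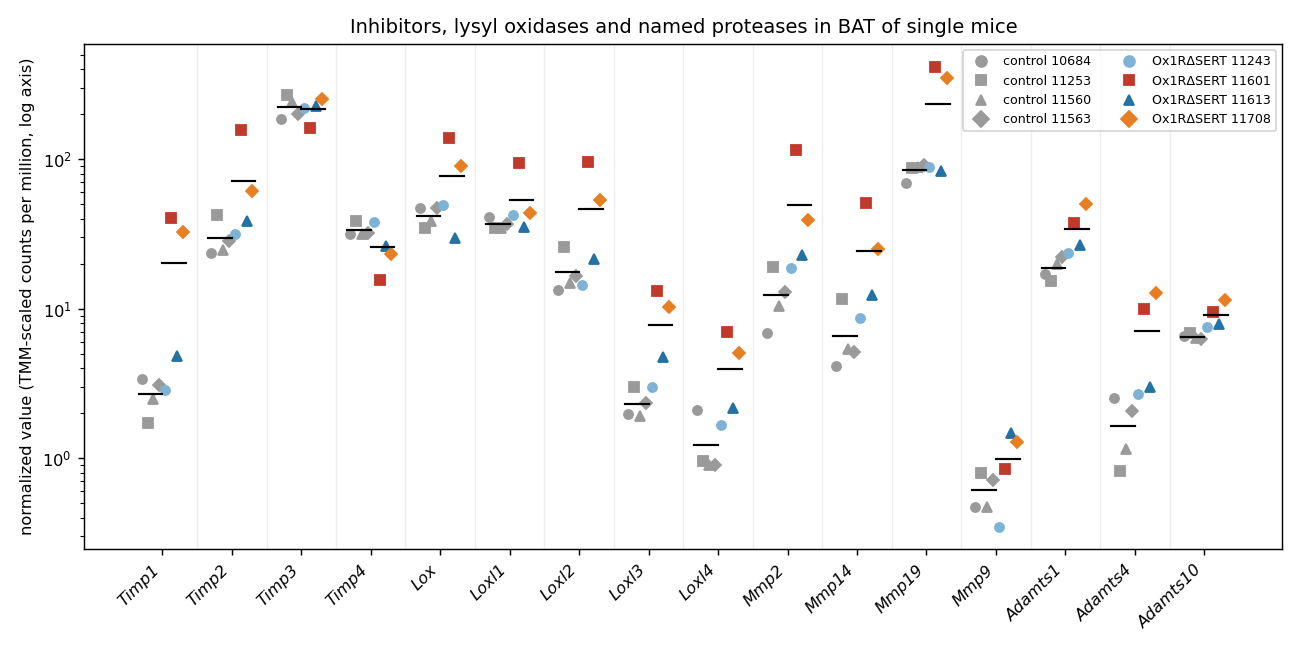
Normalized values (CPM after TMM scaling, log axis) of 16 members in each of the 8 mice, grey for controls and coloured for Ox1RΔSERT mice, with a bar at each group mean. Timp1, the Loxl genes, Mmp2, Mmp14 and Mmp19 are highest in mice 11601 and 11708 (Timp1 at 40.5 and 32.8), while Timp3 is not separated and Timp4 is lowest in mouse 11601.

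Among the MMPs, 7 of 12 tested members were higher at an unadjusted p under 0.05, where 10.2% of all tested genes were. The median log2 fold change of the MMPs was 0.88. By the same rule 0 of the MMPs were higher without mice 11601 and 11708, and the median was 0.22. Mmp19 (chr10:128790910-128800824), a secreted protease of basement membrane proteins, was by far the most abundant MMP and took 50.7% to 61.5% of MMP TPM in controls. Its normalized values were 69.8, 87.7, 88.5 and 91.5 in controls and 88.1, 414, 83.0 and 347 in Ox1RΔSERT mice. Mice 11243 and 11613 lay inside the control range and the other 2 far above the control mean of 84.4 ± 9.84 (SD, n = 4). The log2 fold change was 1.47 ± 0.52 (SE, unadjusted p = 0.020 by edgeR) and 0.03 without these mice. Mmp19 shares 789 of its 3533 exon bases with Tmem198b on the opposite strand.

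Mmp2 (chr8:92827291-92853420), the gelatinase of stromal cells, was at 6.90, 19.2, 10.4 and 12.9 in controls and at 18.8, 115, 22.8 and 39.1 in Ox1RΔSERT mice. Mouse 11243 fell just under the highest control and the other 3 lay above all controls. For Mmp2 the log2 fold change was 1.99 ± 0.59 (SE, unadjusted p = 0.0087 by edgeR) and 0.76 without mice 11601 and 11708 (unadjusted p = 0.060). Mmp14 (chr14:54431612-54445364), the membrane protease that activates pro-MMP2, was at 4.16, 11.5, 5.37 and 5.17 in controls and at 8.63, 51.3, 12.3 and 25.0 in Ox1RΔSERT mice. Control mouse 11253 was the highest control for Mmp2, Mmp14 and Timp2 alike. For Mmp14 the log2 fold change was 1.89 ± 0.57 (SE) with an unadjusted p of 0.0095 and an adjusted p of 0.316 by edgeR, and without mice 11601 and 11708 it was 0.69 (unadjusted p = 0.12). Mmp9 (chr2:164940780-164955850), the gelatinase of neutrophils and macrophages, stayed low, at 0.471 to 0.793 in controls and at 0.349, 0.848, 1.48 and 1.27 in Ox1RΔSERT mice. Its log2 fold change was 0.69 ± 0.43 (SE, unadjusted p = 0.14 by edgeR), and here mouse 11613 had the highest value.

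Genes named in this and the following paragraphs that are not TIMPs, lysyl oxidases, gelatinases, Mmp14, among the 5 most abundant, or among the lowest p or non-overlapping members were chosen after their values were seen. The stromelysins Mmp3 and Mmp11, the collagenase Mmp13 and Mmp23 had log2 fold changes of 0.88 ± 0.34, 0.88 ± 0.35, 1.41 ± 0.58 and 0.93 ± 0.40 (SE), with unadjusted p from 0.029 to 0.046 by edgeR. They were 0.26, 0.49, 0.11 and 0.19 without mice 11601 and 11708, none with an unadjusted p under 0.05. Mmp13 was near the detection limit, at 0.183 to 0.271 in controls and at 0.306, 0.651, 0.157 and 1.17 in Ox1RΔSERT mice. Mmp8, a collagenase of neutrophils, was at 0.420 to 2.72 in controls and 1.2 to 3.15 in Ox1RΔSERT mice. The membrane-type Mmp15 and Mmp17 were not higher, with log2 fold changes of 0.0060 ± 0.16 and -0.40 ± 0.24 (SE). Mmp28 (chr11:83440768-83463071), known from epithelia and macrophages, was at 6.37 to 11.4 in controls and at 4.78 to 9.72 in Ox1RΔSERT mice, with a log2 fold change of -0.27 ± 0.28 (SE). It shares 466 of its 3874 exon bases with 1700020L24Rik on the opposite strand. Both Mmp17 and Mmp28 turned positive on the TPM scales (0.05 and 0.06 on log2(TPM + 1)), where the median of all genes was 0.23. Summed over the family, MMP mRNA was 30.2 to 35.3 TPM in controls and 35.6, 229, 49.0 and 157 TPM in Ox1RΔSERT mice. Divided by the TIMP sum of the same mouse, it was 0.461 to 0.522 in controls and 0.505, 1.32, 0.537 and 1.01 in Ox1RΔSERT mice, a ratio of mRNA levels and not of activities.

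The ADAMTS family held 3 of the 4 members without overlap. Of the 6 tested aggrecanases and versicanases, 4 were higher at an unadjusted p under 0.05 (Adamts1, Adamts4, Adamts5 and Adamts15), against 10.2% of all tested genes. The median log2 fold change over the 6 was 1.02. The count was 1 (Adamts1) and the median 0.37 without mice 11601 and 11708. Adamts1 (chr16:85793827-85803113), which cuts versican and aggrecan, was at 17, 15.3, 19.8 and 22.3 in controls and at 23.4, 37.3, 26.5 and 50.4 in Ox1RΔSERT mice. All 4 Ox1RΔSERT mice were above all controls, with means of 34.4 ± 12.2 against 18.6 ± 3.1 (SD, n = 4 each). The log2 fold change was 0.89 ± 0.24 (SE), with an unadjusted p of 0.0054 and an adjusted p of 0.316 by edgeR, and it was 0.43 without mice 11601 and 11708 (unadjusted p = 0.035). Adamts4 (chr1:171250421-171260637), an aggrecanase induced in inflammation, was at 2.51, 0.824, 1.15 and 2.06 in controls and at 2.71, 9.98, 3.01 and 12.8 in Ox1RΔSERT mice. Here too mice 11243 and 11613 exceeded the highest control, though by little, and the log2 fold change was 2.12 ± 0.58 (SE, unadjusted p = 0.0058 by edgeR). Without mice 11601 and 11708 it was 0.80 (unadjusted p = 0.099 by edgeR).

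Adamts10 (chr17:33524204-33553782), a protein of fibrillin microfibrils, differed little but without overlap, at 6.24 to 6.85 in controls and at 7.53, 9.45, 7.86 and 11.5 in Ox1RΔSERT mice. Its log2 fold change was 0.48 ± 0.15 (SE, unadjusted p = 0.012 by edgeR), and 0.25 without mice 11601 and 11708 (unadjusted p = 0.086). Adamts5 and Adamts15 had log2 fold changes of 1.15 ± 0.38 and 1.49 ± 0.50 (SE), or 0.26 and 0.43 without mice 11601 and 11708, and in both mouse 11243 lay within the control range. The procollagen N-proteinases Adamts2 and Adamts14, which trim the amino end of fibrillar procollagens, had log2 fold changes of 1.15 ± 0.40 and 1.89 ± 0.66 (SE), while the third one, Adamts3, had 0.26 ± 0.33. Adamts2 and Adamts14 were at 0.29 and 0.17 without mice 11601 and 11708. Adamts9 was at 16.0 to 37.2 in controls and 21.6 to 57.9 in Ox1RΔSERT mice, with overlap. Adamts20 (chr15:94270163-94465418) was close to the detection limit, at 0.158 to 0.285 in controls and 0.0789 to 0.269 in Ox1RΔSERT mice, with a log2 fold change of -0.66 ± 0.45 (SE), which was 0.0050 on the log2(TPM + 1) scale. Of the 5 ADAMTS-like genes, which encode secreted proteins without a protease domain, all had a positive log2 fold change. Adamtsl1 and Adamtsl4 had an unadjusted p under 0.05, where 10.2% of all tested genes were higher by that rule. Summed ADAMTS mRNA was 12.2 to 14.3 TPM in controls and 15.2, 44.3, 21.3 and 43.0 TPM in Ox1RΔSERT mice.

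Differences were smaller among the ADAMs. Of 14 tested ADAMs, 3 were higher at an unadjusted p under 0.05 (Adam8, Adam19 and Adam23), where 10.2% of all tested genes were. The median log2 fold change of the ADAMs was 0.31, or -0.01 without mice 11601 and 11708. Adam10 and Adam17, the sheddases of Notch and of TNF, were at 23.8 to 28.7 and 31.8 to 49.98 in controls, and at 24.3 to 44.7 and 35.3 to 43.2 in Ox1RΔSERT mice. Their log2 fold changes were 0.31 ± 0.18 and -0.06 ± 0.14 (SE). Adam9 (chr8:24949611-25016927) and Adam15 (chr3:89338542-89349996), the ADAMs with the highest TPM, had log2 fold changes of 0.16 ± 0.13 and 0.30 ± 0.16 (SE). Adam9 ran from 83.7 to 108 in controls and from 86.3 to 129 in Ox1RΔSERT mice, and Adam15, which shares 1263 of its 6145 exon bases with the antisense gene 4731419I09Rik, from 38.8 to 52.6 and from 43.4 to 68.3.

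Adam12 (chr7:133883199-134232146), a protease of mesenchymal cells and adipocyte precursors, was at 94.8, 178, 214 and 208 in controls and at 154, 135, 171 and 125 in Ox1RΔSERT mice. The lowest value of all 8 was thus in control mouse 10684, and mice 11601 and 11708 were the lowest Ox1RΔSERT mice. Its log2 fold change of -0.25 ± 0.24 (SE) turned to 0.17 on the log2(TPM + 1) scale. Adam4 (chr12:81419443-81421946), a gene best known from the testis, was at 0.340 to 0.610 in controls and 0.226 to 0.414 in Ox1RΔSERT mice, with the lowest p among members with a negative log2 fold change (-0.64 ± 0.31 SE, unadjusted p = 0.069 by edgeR). At the other end, Adam8, a protease of myeloid cells, was at 8.81, 8.28, 4.13 and 10.5 in controls and at 9.41, 58.2, 11.4 and 74.5 in Ox1RΔSERT mice. Its log2 fold change was 2.28 ± 0.68 (SE, unadjusted p = 0.0089 by edgeR), the second largest of the tested members, and 0.40 without mice 11601 and 11708. Only 3 tested members (Adam28, Adamts20 and Mmp13) had a control mouse under the count filter.

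Among the 18 members with counts that were too low to be tested, Adamts19, a poorly characterised ADAMTS protease, had 0, 3, 3 and 1 counts in the controls and 3, 82, 7 and 52 counts in Ox1RΔSERT mice. DESeq2, which applied another filter, called Adamts19 at an adjusted p of 0.035, and the range over alternatives given above does not cover this gene. Mmp27 of the chromosome 9 cluster had 7, 11, 6 and 1 counts in controls and 4, 59, 2 and 15 in Ox1RΔSERT mice, and Adamts16 had 2, 7, 4 and 6 counts and 3, 40, 12 and 13 counts. Mmp25, a membrane-type MMP of leukocytes, had at most 2 counts in a control and 7, 14, 1 and 15 counts in Ox1RΔSERT mice. In these 4 genes mouse 11601 or mouse 11708 again had the highest count. The other 14 had at most 22 counts in any mouse.

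Of 36 partners in matrix turnover (activators, procollagen processing enzymes, plasminogen system genes, elastic fibre proteins, substrates and TGF-β ligands), 35 were tested. At an unadjusted p under 0.05, 18 were higher in Ox1RΔSERT mice and 0 were lower, against 10.2% and 4.96% of all genes, with a median log2 fold change of 0.68. This median was 0.11 without mice 11601 and 11708, and 2 partners, Rhbdf2 and Fbn2, had an unadjusted p under 0.05. With all 8 mice, 3 of the 35 (Rhbdf1, Rhbdf2 and Fbn2) were higher without overlap and 0 were lower, against 2.69% and 2.81% of all tested genes. Rhbdf1 and Rhbdf2 are the iRhoms that carry ADAM17 to the cell surface, and each had an adjusted p of 0.316 by edgeR. Adam17 itself was not higher. Rhbdf2 was at 7.58, 7.74, 7.68 and 8.51 in controls and at 9.74, 10.3, 11.5 and 13.7 in Ox1RΔSERT mice, with a log2 fold change of 0.52 ± 0.13 (SE, unadjusted p = 0.0033 by edgeR). This difference was 0.44 without mice 11601 and 11708 (unadjusted p = 0.012 by edgeR), and here mouse 11613 exceeded mouse 11601. Rhbdf1 was at 9.24 to 13.5 in controls and 14.6 to 24 in Ox1RΔSERT mice, with a log2 fold change of 0.63 ± 0.19 (SE, unadjusted p = 0.0090 by edgeR), and 0.33 without mice 11601 and 11708 (unadjusted p = 0.076).

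Fbn2, a fibrillin of early microfibrils, was close to 0 in controls (0.0262 to 0.380) and at 0.393, 4.14, 0.786 and 1.46 in Ox1RΔSERT mice, with no overlap and a log2 fold change of 3.55 ± 0.91 (SE, unadjusted p = 0.0038 by edgeR), whose size depends on the prior count at such low values. Bmp1, the procollagen C-proteinase, which also activates Lox, was at 11.2 to 14.8 in controls and at 13.2, 77.1, 19.6 and 40.4 in Ox1RΔSERT mice, with a log2 fold change of 1.61 ± 0.49 (SE). Plat, the tissue plasminogen activator, and Fn1, fibronectin, had log2 fold changes of 1.64 ± 0.50 and 2.21 ± 0.67 (SE), with unadjusted p of 0.0097 and 0.0095 by edgeR. Without mice 11601 and 11708 the log2 fold changes were 0.42 for Bmp1, 0.36 for Plat and 0.50 for Fn1. Their unadjusted p values were 0.058, 0.066 and 0.21 by edgeR, and Fbn2 was at 2.04 (unadjusted p = 0.032). Furin, which activates pro-MMP14 and many pro-ADAMs, had a log2 fold change of -0.02 ± 0.10 (SE), and Eln, elastin, one of 0.28 ± 0.28 (SE).

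Markers of macrophages and of fibroblasts and adipocyte progenitors moved with the members. All 7 macrophage markers and all 7 fibroblast and progenitor markers were higher at an unadjusted p under 0.05. Of all tested genes, 10.2% were higher and 4.96% lower by this rule. The macrophage markers summed to 51.8 to 106 TPM in controls and to 80.6, 639, 108 and 467 TPM in Ox1RΔSERT mice. For fibroblasts and progenitors the sums were 136 to 173 TPM in controls and 166, 635, 220 and 353 TPM in Ox1RΔSERT mice. Mouse 11243 thus lay within the control range for both lists, and mouse 11613 only just above it for macrophages. The largest sums of both lists were those of mice 11601 and 11708, and marker counts without these mice are not given here. Endothelial (45 to 54.8 TPM in controls, 55.2 to 79.0 TPM in Ox1RΔSERT mice) and mural markers (54.1 to 74.7 and 76.8 to 92.4 TPM) differed less, and 0 of the 10 had an unadjusted p under 0.05. Of the neutrophil markers, S100a8 and S100a9 were found in every mouse, whereas Ly6g, Mpo and Camp were each at or under 0.127 TPM, and T and B cell markers summed to 0.150 to 0.528 TPM. Mast cell markers summed to 6.94 to 12.2 TPM in controls and to 7.54, 31.7, 13.7 and 17.9 TPM in Ox1RΔSERT mice. White adipocyte markers summed to 11.4 to 36.6 TPM and 21.2 to 72.7 TPM, Schwann cell markers to 94.1 to 128 TPM and 118 to 132 TPM, and mesothelial markers stayed under 0.15 TPM. Brown adipocyte markers summed to 10790 to 11900 TPM in controls and 9958 to 12600 TPM in Ox1RΔSERT mice, and 1 of 7, Ucp1, was lower at an unadjusted p under 0.05. In bulk tissue, more cells of a type and more RNA of a gene in each cell cannot be told apart, and the part of these cell types in the differences was not tested.

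**Figure D4:**
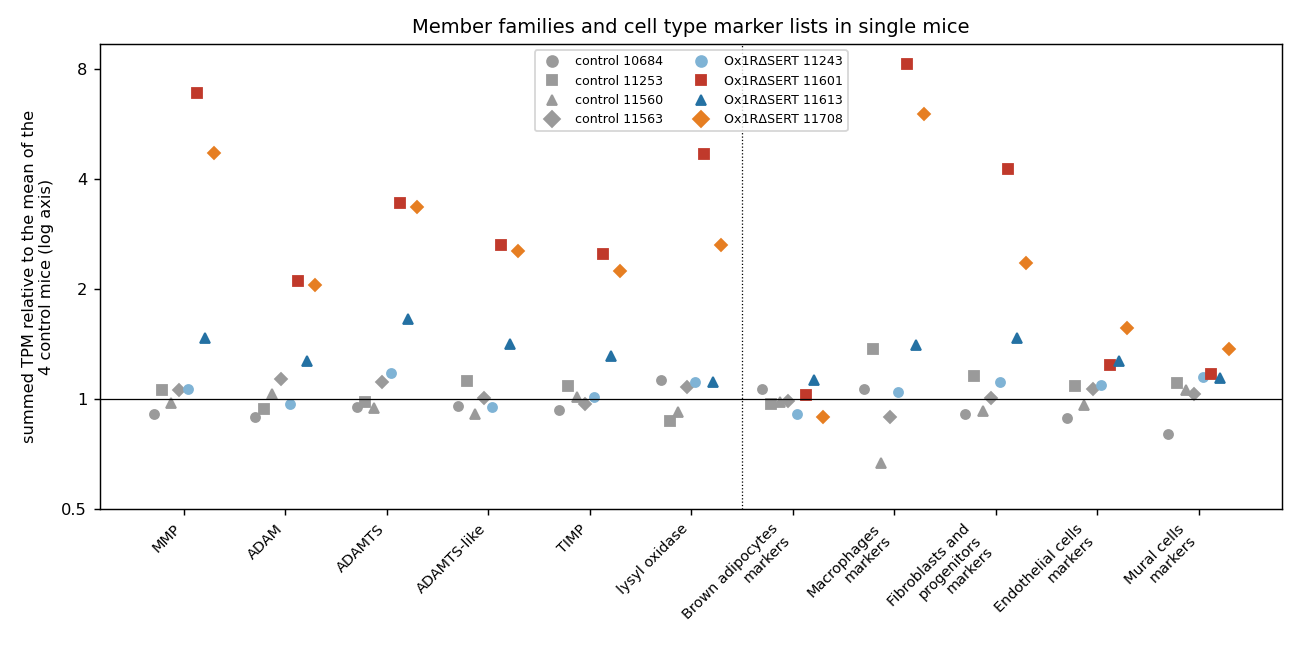
Summed TPM of the 6 member families (left of the dotted line) and of 5 marker lists (right), each divided by the mean of the 4 control mice, on a log axis with a point for each mouse. MMPs reach 6.88 and 4.71 times the control mean in mice 11601 and 11708, macrophage markers 8.27 and 6.04 times, and brown adipocyte markers 1.03 and 0.892 times.

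Mice 11601 and 11708 did not have the same pattern of members. Of the 24 members with an unadjusted p under 0.05, 19 had a higher normalized value in mouse 11601 than in mouse 11708, 10 of them by over 1.5 times, and 5 had a higher value in mouse 11708. The ratio between these mice was highest for Mmp2 (2.95), Timp2 (2.54), Adamtsl1 (2.10) and Mmp14 (2.06). It was near 1 for Mmp3 (1.13), Adamts5 (1.15), Mmp19 (1.19) and Timp1 (1.24), and under 1 for Adamts10 (0.825), Adam8 (0.781), Adamts4 (0.780), Adamts1 (0.740) and Mmp13 (0.555). In TPM sums the same ratio was 1.80 for fibroblast and progenitor markers and 1.37 for macrophage markers. With 1 library per mouse, these ratios have no error and were not tested. Mouse 11243 lay within the control range for 18 of the 24 members and mouse 11613 for 9, and mouse 11613 lay above it for 14.

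**Figure D5:**
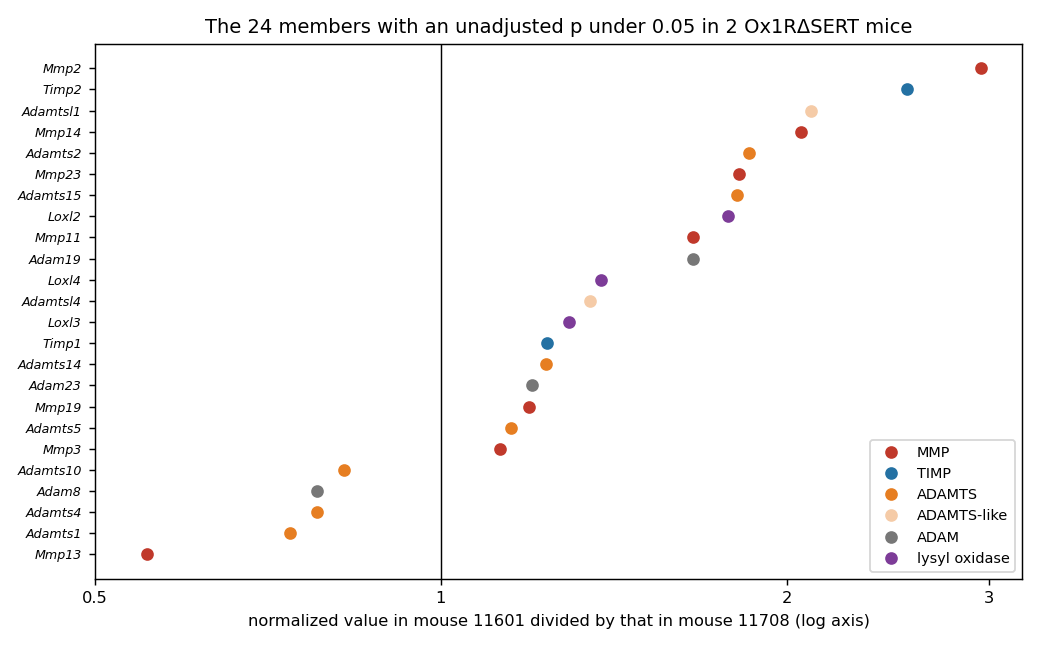
Ratio of the normalized value in Ox1RΔSERT mouse 11601 to that in mouse 11708 (log axis) for each of the 24 members with an unadjusted p under 0.05, coloured by family. Mmp2 and Timp2 lie at 2.95 and 2.54, and the 5 members left of 1 include Adamts1, Adamts4 and Adamts10.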

How the data were processed

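The authors quantified poly-A selected, stranded libraries with Salmon 0.14.1 (nf-core/rnaseq) on GRCm38, and the labels also name STAR. The reporting summary names a human assembly in 1 place. The annotation release and the strand setting are not given in the sources used here. The deposited files hold unnormalized estimated counts of each gene, and TPM values that the authors scaled for length and library. Symbols came from GENCODE M21 (44118 of 44674 identifiers, 98.8%), and coordinates of genes from the same GRCm38 annotation.

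Estimated counts were rounded and all genes fitted with edgeR 4.0.16 in R 4.3.3 (filterByExpr, TMM, glmQLFit, glmQLFTest, two-sided, Benjamini-Hochberg over 14489 genes, threshold 0.05, no covariates). SEs come from the F statistic. Exact permutation tests used normalized values. The members, lists and naming rule were chosen with earlier results of these data known. The rule named every TIMP and lysyl oxidase, Mmp2, Mmp9 and Mmp14, the 5 members of highest TPM, the 6 of lowest p in each direction, those without overlap, those called by DESeq2 and the 6 partners of lowest p. Alternatives were DESeq2 1.42.0 (the study's tool, there in version 1.26.0), other scalings and filters, mitochondrial genes left out, limma 3.58.1 (voom, and trend on TPM with pseudocounts of 1 and 0.1), and mice left out. On simulated counts of 14489 genes with 200 changed, edgeR made 140 calls, 133 of them changed genes, and DESeq2 made 166, 137 of them changed genes. These counts hold for the simulated data only. Error rates in the real data, where some Ox1RΔSERT mice stood apart from the rest of their group, were not tested. Total counts were 35852708 to 50063339, and floors of 3 counts cover counting error only.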

Additional observations from a re-analysis of the deposited data

Results flagged for a closer look

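In 5 of the 48 groups of 4 mice checked (each of the 24 genes named by rule in each group), 1 mouse lay far from the other 3 by Dixon's criterion. Chance alone does this in about 1 of 20 groups. For Loxl1, Ox1RΔSERT mouse 11601 was at 94.1 and the other Ox1RΔSERT mice at 35.0 to 43.4. For Loxl4, control mouse 10684 was at 2.12 with the other controls at 0.903 to 0.951, and for Mmp28 the same mouse was at 11.4 with the others at 6.37 to 6.98. Control mouse 11253 was at 11.5 for Mmp14, against 4.16 to 5.37 in the other controls, and at 38.7 for Timp4, against 31.8 to 31.9.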

How the results depend on the processing

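No paired analysis was possible because the labels give no replicate numbers that link control and Ox1RΔSERT mice. The count of 24 members with an unadjusted p under 0.05 was 23 to 33 in 9 alternatives (DESeq2, other scalings, filters, mitochondrial genes left out, TPM), 12 with limma voom, 13 to 31 with 1 mouse left out and 2 without mice 11601 and 11708. Leaving out mouse 11601 gave 13, control mouse 11560 gave 14, and mouse 11708, control 10684 or control 11563 gave 15 each. These counts include members that were lower, 2 without control 10684 (Adam12 and Adam4) and 1 each without mouse 11243 (Timp4), 11613 (Adamts20) or 11601 (Adam4), and 0 in every other setting. The count of members with an adjusted p under 0.05, 0 by edgeR, was 0 in every alternative but DESeq2, which gave 7. Calls by DESeq2 ran from 0 to 24 with 1 mouse left out, an alternative added after the data had been seen, with 0 calls without mouse 11601, 11708, 11560 or 11563 and 4 without mouse 10684, but 18 without mouse 11613 and 24 without mouse 11243 (1 of them lower), and there were 0 calls without both mice 11601 and 11708. The median log2 fold change of 0.75 was 0.52 to 0.94 with 1 mouse left out and 0.18 without both mice. The partners' count of 18 was 7 with limma voom, 9 to 21 with 1 mouse left out (9 without mouse 11601 or control 11560, 11 without mouse 11708, and 1 of 13 lower without control 10684) and 2 without both mice. Where only mice are left out, fewer samples enter the fit, and for limma voom the cause was not tested.

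Of 436 values for 23 tested genes under 19 alternatives, 16 in 7 genes changed sign. On log2(TPM + 1) and log2(TPM + 0.1), where the median of all genes was 0.23 and 0.32, Adam12 was at 0.17 and 0.19, Adamts20 at 0.0050 and 0.0341, Mmp17 at 0.0464 and 0.16, Mmp28 at 0.0594 and 0.0728, and Timp3 at 0.27 and 0.28. Timp3 was also at 0.16 with library size alone, at -0.1445 to 0.0591 with 1 mouse left out (0.0255 without control 11253, 0.0591 without mouse 11601) and at 0.0024 without mice 11601 and 11708. Without both of these mice Adam9 was at -0.0139 and Lox at -0.0731. With 4 mice a group, members with counts near 3 a mouse could not be compared at this depth.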
